A study of Mus musculus with 9 samples.

Results

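The H3K27ac peaks of mouse oligodendrocyte progenitor cells (OPCs) and of oligodendrocytes (OLs) merged into 48551 regions on chromosomes 1 to 19. The regions described here carried the mark in OPCs of both cell lines, lacked it in OLs of both lines, and overlapped a SOX6 peak in OPCs of both lines. There were 1522 of them, 3.13% of all merged regions and 28.8% of the 5291 regions acetylated in OPCs alone, which were themselves 10.9% of all. They are called OPC-only SOX6 regions below, and they covered 2.16 Mb. Their presence in the OPC H3K27ac and OPC SOX6 lists and their absence from the OL H3K27ac lists are the measured values they were chosen by, so those values are given as a description and carry no test.

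The OPCs were made from 2 epiblast stem cell lines of the mouse strains 129SvEv and 129S1/SvImJ, EpiSC5 and 129O1. They were grown with bFGF and PDGFA and without SHH and had been sorted for CD140a and NG2, and the OLs were O1-positive cells collected on a magnetic sorter. Each line is a single stem cell line carried in culture, and the labels name no genetic change and no added agent for any group. Chromatin immunoprecipitation with sequencing (ChIP-seq) of H3K27ac gave 1 list for OPCs and 1 for OLs of each line, and SOX6 gave 1 list for OPCs of each line and 1 for OLs of EpiSC5. The 2 lines are the replicates, and SOX6 in OLs has no replicate.

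H3K27ac, acetylation of lysine 27 on histone H3, marks active enhancers and promoters. SOX6 is a DNA-binding factor of the SoxD group that bends DNA through its HMG box and has no activation domain of its own. In the oligodendrocyte lineage, SOX6 and its close relative SOX5 are known for holding progenitors in an undifferentiated state, and SOX6 levels are known to fall as the cells mature.

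The lists matched their cell labels at most marker genes. Summed H3K27ac over the bodies of 5 OPC markers covered 91.1 kb (129O1) and 70.0 kb (EpiSC5) in OPCs and 39.2 and 34.0 kb in OLs, and for 6 oligodendrocyte markers it covered 6.45 and 4.92 kb in OPCs against 51.6 and 75.6 kb in OLs. The astrocyte sums ran the same way as the oligodendrocyte ones, with 7.14 and 4.37 kb in OPCs and 21.0 and 7.42 kb in OLs. Of the 5 genes, Slc1a2 went from 3.31 to 14.4 kb in 129O1, Aqp4 from 1.75 to 1.54 kb in EpiSC5, and Gjb6 had none in any list. Over 4 neuron markers the sums were 5.81 and 5.44 kb in OPCs and 9.93 and 6.69 kb in OLs. Rbfox3 was higher and Snap25 lower in OLs of both lines. The part of astrocyte- and neuron-marker acetylation in the results was not tested. Pluripotency markers (Pou5f1 and Nanog) had 0 kb within their bodies in all 4 lists. The lists were of unequal length, with 29975 and 26967 OPC H3K27ac peaks, 33058 and 30443 OL H3K27ac peaks, 22320 and 15166 OPC SOX6 peaks (129O1 first) and 3858 OL SOX6 peaks in EpiSC5 on these chromosomes. Depth per library is unknown, and a peak's absence means only that it was not listed. In such bulk lists, fewer cells carrying a mark and less of the mark per cell cannot be told apart.

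Few of these regions lay at promoters, and the sequences of some that did are shown with the place of SOX6. A RefSeq promoter window (250 bases before to 50 after a start, GRCm38.p6, which is mm10) was overlapped by 60 of the 1463 regions on chromosomes for which windows were at hand. In 11 protein-coding genes both lines placed their SOX6 summit, the base of highest signal, inside the 250 bases before the start. The 6 of these with the highest SOX6 fold enrichment, taken as the lower of the lines' values, are shown around their summits because they are the clearest cases of SOX6 at the promoter of an OPC-only region. Each is printed 5′ to 3′ along the gene's strand and ends before the start. Capitals mark the SOX core ACAAT, the E-boxes CAGCTG and CATCTG, or the AP-1 site TGACTCA, on either strand.
Cntn6: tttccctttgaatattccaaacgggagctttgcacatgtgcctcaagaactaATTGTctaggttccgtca
Agfg2: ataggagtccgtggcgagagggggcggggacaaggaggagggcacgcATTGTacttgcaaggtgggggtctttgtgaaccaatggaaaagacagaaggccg
Rgr: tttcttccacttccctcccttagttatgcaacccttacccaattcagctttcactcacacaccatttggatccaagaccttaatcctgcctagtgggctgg
Ltbp1: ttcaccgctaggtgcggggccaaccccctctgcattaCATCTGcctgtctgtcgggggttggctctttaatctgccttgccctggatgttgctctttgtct
Tnfaip6: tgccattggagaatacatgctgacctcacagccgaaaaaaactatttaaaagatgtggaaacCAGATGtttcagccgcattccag
Ttll10: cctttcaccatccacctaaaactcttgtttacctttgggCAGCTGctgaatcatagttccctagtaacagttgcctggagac

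The Cntn6 stretch lies at chr6:104492974-104493043 on the plus strand, with the summits 7 bases (129O1) and 33 bases (EpiSC5) before the start of this neuronal contactin gene. Its SOX6 fold enrichment was 15.5 in 129O1 and 15.4 in EpiSC5, and its H3K27ac fold was 3.92 and 4.78. The Agfg2 stretch (chr5:137684846-137684946, minus strand) had its summits 148 and 137 bases before the start and SOX6 folds of 6.77 and 7.38. Both hold the SOX core once. The Rgr stretch (chr14:37049161-37049261, minus strand), at a gene of the retinal pigment epithelium, holds none of these letters, with SOX6 folds of 7.97 and 6.46. Ltbp1 (chr17:75178587-75178687, plus strand), which encodes a latent TGF-beta binding protein, had folds of 10.2 and 5.90. Tnfaip6 (chr2:52038028-52038112, plus strand), which encodes a hyaluronan-binding protein, had 5.86 and 5.19, and Ttll10 (chr4:156050818-156050899, minus strand), a tubulin-ligase-like gene, had 5.82 and 5.07. Among the 6, SOX6 was highest at Cntn6 in both lines.

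The letters ACAAT, on either strand, occurred in 25 of the 64 promoter windows that overlapped an OPC-only SOX6 region (39.1%) and in 9 of the 17 that held both summits (52.9%). They occurred in 30.4% of all 31396 windows of this length, in 27% of 2594 windows at constant regions with SOX6, and in 16.4% of 525 windows at OPC-only regions without SOX6. The longer AACAAT, which contains ACAAT, was in 17.2% of the 64 windows and 10.6% of all. CATCTG was in 7 of the 17 windows with both summits (41.2%) and CAGCTG in 17.6%. Over the 64 windows and all windows, CATCTG stood at 21.9% and 17.2%, CAGCTG at 25% and 16.3%, TGACTCA at 9.38% and 5.26%, and TTGGC, the half-site of NFI factors, at 42.2% and 46.7%. A match is a description of the letters only. The windows were not matched for base composition, and whole regions were not searched. Some windows overlap each other, as do those of Gm36150 among the 17 and of Elavl2 among the 64. The same letters can therefore be counted more than once.

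Within OPCs the OPC-only SOX6 regions carried SOX6 about as high as constant SOX6 regions did, on weaker acetylation. Constant regions are those listed in all 4 H3K27ac lists; 6100 of 14591 (41.8%) had SOX6 in both OPC lists. Over all merged regions that share was 22.3%, and among OL-only regions, those in both OL lists and neither OPC list, it was 7.74%. The median of a region's highest SOX6 fold was 6.28 in 129O1 and 5.34 in EpiSC5 for OPC-only SOX6 regions, and 6.68 and 5.33 for constant SOX6 regions. The median H3K27ac fold was 3.76 and 3.75 for the former, 6.06 and 5.31 for the latter, and 3.36 and 3.35 for the 2992 OPC-only regions without SOX6. The regions were also shorter than constant SOX6 regions, with medians of 1330 bp (lowest 281, highest 5457) and 2447 bp, and longer than OPC-only regions without SOX6, at 1031 bp. The fold is the authors' value of each peak, and the classes were selected on OPC and OL peaks, so these orders are a description.

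**Figure D1:**
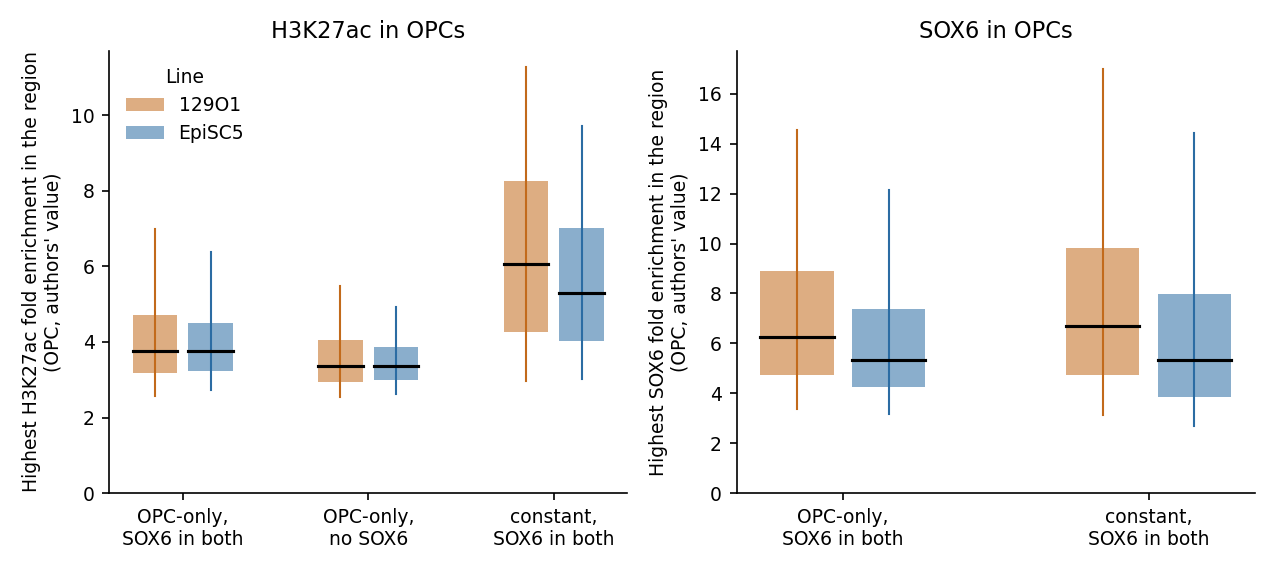
Highest fold enrichment of H3K27ac (left) and SOX6 (right) in each region in OPCs, by region class and cell line. Black lines are medians, boxes span the 25th to 75th percentile and thin lines the 5th to 95th; SOX6 medians of OPC-only and constant SOX6 regions lie close together (6.28 and 6.68 in 129O1), while H3K27ac medians differ (3.76 and 6.06).

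Among the 1522 regions themselves, SOX6 height was shared by the lines more than it followed acetylation. Spearman's rank correlation of SOX6 fold between 129O1 and EpiSC5 was 0.77, and of H3K27ac fold 0.66. Between SOX6 and H3K27ac fold it was 0.12 in 129O1 and 0.20 in EpiSC5, and between H3K27ac fold and region width it was 0.64 and 0.50. These describe 1522 regions that come from the same 4 libraries. Most held a single SOX6 peak, 95.5% in 129O1 and 97.0% in EpiSC5. The SOX6 summits of the lines were a median of 24 bp apart and within 100 bp in 95.1%, and they lay a median of 99 bp from the middle of the region. When the regions were ordered by the lower of their SOX6 folds and cut into 4 groups of 380 or 381, the median H3K27ac fold went from 3.59 to 3.95 in 129O1 and from 3.52 to 3.95 in EpiSC5 from the first to the last group. The median distance to a protein-coding start site went from 67.1 to 93.5 kb over the same groups.

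The rule has an edge on each of its lists. Held to a −log10 q of 10 or more, the OPC lists left 489 regions with the OL lists whole, while the lists of EpiSC5 alone gave 2825 and those of 129O1 alone 3144 when merged by themselves. The lowest −log10 q among the regions was 3.07 and 3.12 for H3K27ac and 3.93 and 3.27 for SOX6 (129O1 first), where the lists themselves end at 3. In 334 regions (21.9%) the weakest of the 4 peaks was under 5, and in 489 it was 10 or more. The smallest overlap with a SOX6 peak was 2 bp in 129O1 and 19 bp in EpiSC5, and 43 regions overlapped by under 100 bp in at least 1 line. Just outside the rule stood 1125 regions with the same OPC peaks and an OL H3K27ac peak in 1 line, 893 of them in 129O1 and 232 in EpiSC5. Their median OPC H3K27ac fold was 4.51 and 4.09, and the median −log10 q of that OL peak was 6.12.

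SOX6 in oligodendrocytes, which the rule did not use, was listed at very few of these regions. An OL SOX6 peak overlapped 9 of 1522 (0.591%), against 1288 of 6100 constant SOX6 regions (21.1%), 97 of 636 OL-only regions with OPC SOX6 (15.2%) and 5.82% of all merged regions. Among OPC-only regions with SOX6 in 1 list it was 7 of 777 (0.901%), and without SOX6 it was 2 of 2992. Among the 1125 regions with an OL H3K27ac peak in 1 line it was 29 (2.58%). Counted by peak, 10 of the 1570 EpiSC5 OPC SOX6 peaks in OPC-only SOX6 regions (0.637%) also had an OL SOX6 peak, against 17.2% of 7003 in constant SOX6 regions, 1.66% of 2529 outside all acetylated regions and 9.76% of the whole EpiSC5 list. Because constant SOX6 regions were wider and more acetylated, the share was also taken over those within the 10th to 90th percentile of the OPC-only SOX6 regions in width and in all 4 OPC folds, a choice made after seeing the data. It was then 58 of 810 (7.16%) for constant regions and 2 of 647 (0.309%) for OPC-only SOX6 regions. Away from promoter windows it was 12.2% and 0.570%. With every list, OL lists included, held to a −log10 q of 10 or more, the share among OPC-only SOX6 regions was 1.99%, against 20.2% for constant ones. In that setting regions with a weaker OL H3K27ac peak can count as OPC-only. With only the OPC lists held to 10 and the OL lists whole, the shares were 0.6135% and 23.1%. OL SOX6 comes from 1 library, with 3858 peaks against 15166 in OPCs of the same line, so the difference has no replicate check and no test was made.

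**Figure D2:**
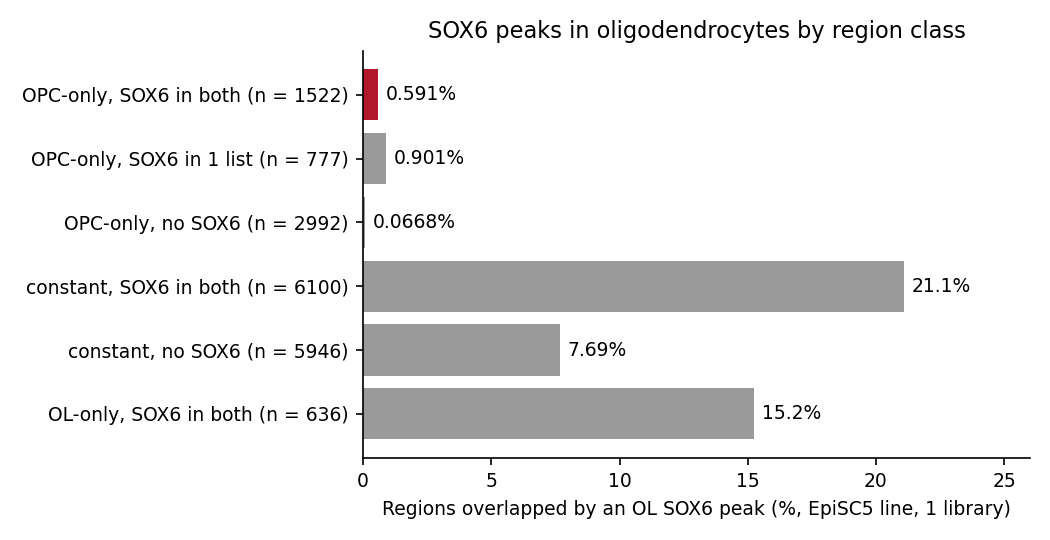
Share of regions overlapped by an OL SOX6 peak, by region class, with the number of regions in each. The bar of OPC-only regions with SOX6 in both OPC lists stands at 0.591% and that of constant regions with SOX6 at 21.1%.

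The 9 exceptions are few enough to name. The highest OL SOX6 fold, 10.7, was at chr3:120781758-120783471, 372 kb from Rwdd3, where the OPC folds were 16.3 and 18. A region 183 kb from Ets1, the gene of an ETS transcription factor (chr9:32940552-32942086), had 8.21 in OLs and 11.3 and 8.70 in OPCs. Regions at Tex14 (in the gene body, 5.80 in OLs) and near Trim7 (4.36 kb away, 6.35 in OLs) had OPC folds of 7.02 or more. At Sec22c the OL fold was 5.98 and the OPC folds 2.65 and 2.76. A pair lay beside replication-dependent histone genes on chromosome 13, 4.24 kb from H2bc13 and 11.5 kb from H4c8, with OL folds of 6.33 and 6.18. The others were 23.4 kb from Eapp (4.91) and 43.7 kb from Ctdp1 (8.39). Folds from separate lists are set side by side here and are not on a common scale.

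A majority of OPC-only SOX6 regions lay outside protein-coding genes. This did not hold with all lists, OL lists included, at a −log10 q of 10 or more, where 51.0% lay in one. With only the OPC lists held to 10 and the OL lists whole, 44.8% did. In the main lists a protein-coding gene body was overlapped by 61.3% of OPC-only regions without SOX6, 73.3% of constant SOX6 regions and 70.8% of all merged regions. For OPC-only SOX6 regions the share was 46.1% (701 of 1522), and 57.9% with genes of any kind. Of those outside protein-coding genes, 127 had a gene body within 10 kb, 365 between 10 and 100 kb away, and 329 (21.6% of all 1522) farther than 100 kb. The median distance to the nearest protein-coding start site was 84.4 kb, against 40.7 kb for OPC-only regions without SOX6 and 27.2 kb for constant SOX6 regions. Start sites came from the promoter windows, which give some genes more than 1 start. They have none on chromosome 18 and cover 81.7% of the protein-coding genes elsewhere. Distances are therefore upper bounds and counts near a start lower bounds in each class. A start within 1 kb was found for 28 of 1463 (1.91%), against 13.5% and 21.9%. Promoter windows were overlapped by 4.10%, against 15.1%, 30.2% and 20.0% of all merged regions. Widths differ between the classes, and a wider region overlaps a gene or window more readily. For OPC-only regions with SOX6 in 1 list the median distance was 77.2 kb, with 54.4% in a gene body and 7.72% at a promoter window. OL-only regions with OPC SOX6 had 58.5% in a gene body, a median distance of 49.5 kb, 2.79% at a promoter window and 0.820% within 1 kb of a start, so the low promoter share was also seen there.

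**Figure D3:**
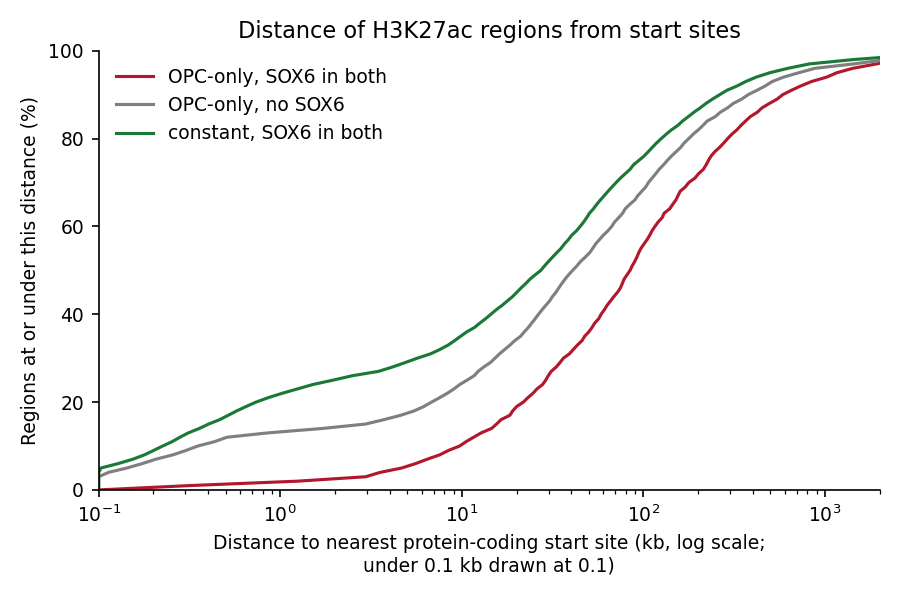
Cumulative share of regions (y axis) by distance to the nearest protein-coding start site (x axis, kb, log scale) off chromosome 18, for OPC-only regions with SOX6 in both lists, OPC-only regions without SOX6 and constant regions with SOX6. The curve of OPC-only SOX6 regions lies to the right, with its median at 84.4 kb against 40.7 and 27.2 kb.

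The regions with the highest SOX6 were mostly outside genes. Of the 12 with the highest SOX6 fold, 9 lay outside gene bodies and 6 were over 100 kb from one. The first, at chr4:48924260-48925366, was 134 kb from Plppr1, which encodes a membrane protein of neurites. Its SOX6 fold was 36.1 in 129O1 and 28.6 in EpiSC5 and its H3K27ac fold 3.48 and 3.39, so SOX6 was far above the median of the regions and acetylation was below it. The next, at chr4:97418117-97419919, was 158 kb from Nfia, the gene of a nuclear factor I protein that acts in glial specification, with SOX6 folds of 24.0 and 22.4. Regions 198 kb from Stmn2, a microtubule regulator of growth cones, and 257 kb from Fzd1, a Wnt receptor, had 21.8 and 22.4, and 22.7 and 20.1. Inside genes, Syt1, which encodes a calcium sensor of synaptic vesicles, had 23.7 and 19.6 at chr10:108979557-108980438, Setbp1 had 20.4 and 18.1, and Cntn5, a contactin gene, had 21.4 and 17.9. A region 49.5 kb from Lgr5, a receptor of R-spondins in the Wnt pathway, had 18.2 and 21.0. Others were nearest to Clec2d (17.4 kb), Cntn4 (285 kb) and Cenpc1 (771 kb). None of the 12 had an OL SOX6 peak, which is near the share of 0.591% over all 1522 regions. Of the 9 regions with an OL SOX6 peak, 4 were in the group of 381 with the highest SOX6 folds. The group with the lowest folds also held 4.

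The widest regions carried more acetylation. The widest spanned 5457 bp at chr11:7233796-7239252, 18.3 kb from Igfbp3, an insulin-like growth factor binding protein, with H3K27ac folds of 8.27 and 8.11 and SOX6 folds of 10.8 and 11.9. A region of 5405 bp at Adam12, a metalloprotease gene, had H3K27ac folds of 7.55 and 7.26. One of 4073 bp, 5.44 kb from Nrg1, whose product is a ligand of ERBB receptors, had 10.5 and 9.90 with SOX6 folds of 14.4 in both lines. Bmpr1b, a BMP receptor gene, held one of 4518 bp (H3K27ac 4.85 and 6.27), and Kcnd2, a potassium channel gene, one of 4414 bp (8.96 and 6.94). The others of the 8 widest were nearest to Ddit4l (4550 bp), Macc1 (4224 bp) and Rgr (4125 bp). All 8 exceeded the median H3K27ac fold of the regions in both lines, whereas Macc1 (SOX6 3.42 and 3.66) and Kcnd2 (5.27 and 3.67) were below the median SOX6 fold in both.

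The regions were spread over the chromosomes and seldom ran together. Their share of OPC-only regions was between 22.6% (chromosome 7) and 34.8% (chromosome 1). Within gaps of 12.5 kb, 48 regions formed 23 runs, of which 2 held 3 regions, 1 of them at Srgap2. Within gaps of 100 kb, 342 formed 154 runs. The longest held 5 regions between 37672014 and 37936601 on chromosome 3, the first of them 27.4 kb from Spry1 and the others nearest to Gm5148 (33.3, 92.3, 172 and 210 kb). Spry1 encodes a feedback inhibitor of receptor tyrosine kinase signalling, and this run was singled out after its values were seen. In order of position their SOX6 folds were 6.63 and 8.51, 5.55 and 5.96, 11.2 and 5.16, 6.32 and 3.74, and 14.2 and 11.0 (129O1 first). The farthest of them was 290 kb from Spry1, with H3K27ac folds of 6.78 and 4.73.

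Of 20665 protein-coding genes, 773 (3.74%) held an OPC-only SOX6 region in their body or within 10 kb of it. Most held 1, 107 held at least 2, 21 at least 3, and none more than 4. Genes with such a region were long, with a median of 110 kb against 17.5 kb for all genes. The share of genes with one was 1.07% below 20 kb of length and 3.37% at 20 to 100 kb. It was 14.9% at 100 to 500 kb and 44.4% above 500 kb. The count of 773 was 267 with the OPC lists held to a −log10 q of 10 or more, and 1490 by the EpiSC5 lists alone or 1516 by the 129O1 lists alone.

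Genes with at least 3 are described here by the 12 that come first by number of regions and then by their summed length. Dgkb, a diacylglycerol kinase gene, held 4 regions over 7.45 kb and no other OPC-only region. Their SOX6 folds were 17.5 and 12.1, 11.3 and 12.7, 5.67 and 4.14, and 3.23 and 2.72 in 129O1 and EpiSC5. Around Dgkb, H3K27ac covered 15.6 and 16.9 kb in OPCs and 4.79 and 3.93 kb in OLs. Srgap2, which acts downstream of SLIT and ROBO, held 4 between 131426752 and 131484718 on chromosome 1, with SOX6 folds from 4.62 to 7.98 in 129O1 and from 4.55 to 9.74 in EpiSC5. H3K27ac around it covered 17.5 and 19.6 kb in OPCs and 6.41 and 5.18 kb in OLs. Nrxn3, a presynaptic adhesion gene, held 4, and 4 further OPC-only regions without SOX6. Dennd1a, a Rab35 exchange factor gene, and Atxn7l1 also held 4 each. With the OPC lists held to a −log10 q of 10 or more, Dgkb had 2, Srgap2, Nrxn3 and Atxn7l1 had 1 each and Dennd1a had 0. By the 129O1 lists alone Nrxn3 had 8, and by the EpiSC5 lists alone Srgap2 and Dennd1a each had 6.

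Others with 3, which come first by summed length, were Sox5, Anks1b, Ncald, Ntm, Fhit, Sema3a and Fat3. By the 129O1 lists alone Sox5 and Ncald had 6 each, and with the OPC lists held to 10 they had 2 and 0. Under that limit Anks1b and Ntm had 2 and Fhit, Sema3a and Fat3 had 1. Sema3a, a secreted repulsive guidance cue, had SOX6 folds of 8.25 and 7.36, 7.95 and 10.1, and 6.81 and 3.92, and H3K27ac around it covered 12.2 and 9.90 kb in OPCs against 3.56 and 1.78 kb in OLs. At Anks1b, a postsynaptic scaffold gene, 5 OL-only regions stood beside the 3, and H3K27ac covered 22.1 and 16.5 kb in OPCs and 32.0 and 30.0 kb in OLs. Ntm, an adhesion gene of the IgLON family, held 7 OL-only regions beside its 3, and Fhit, a tumour suppressor gene, held 4. Among the 12 genes, H3K27ac covered more in OLs than in OPCs of both lines only at Anks1b. At Fhit it covered 6.79 and 7.09 kb in OPCs and 5.59 and 13.6 kb in OLs (129O1 first). At the others of the 12 it covered less in OLs in both lines.

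**Figure D4:**
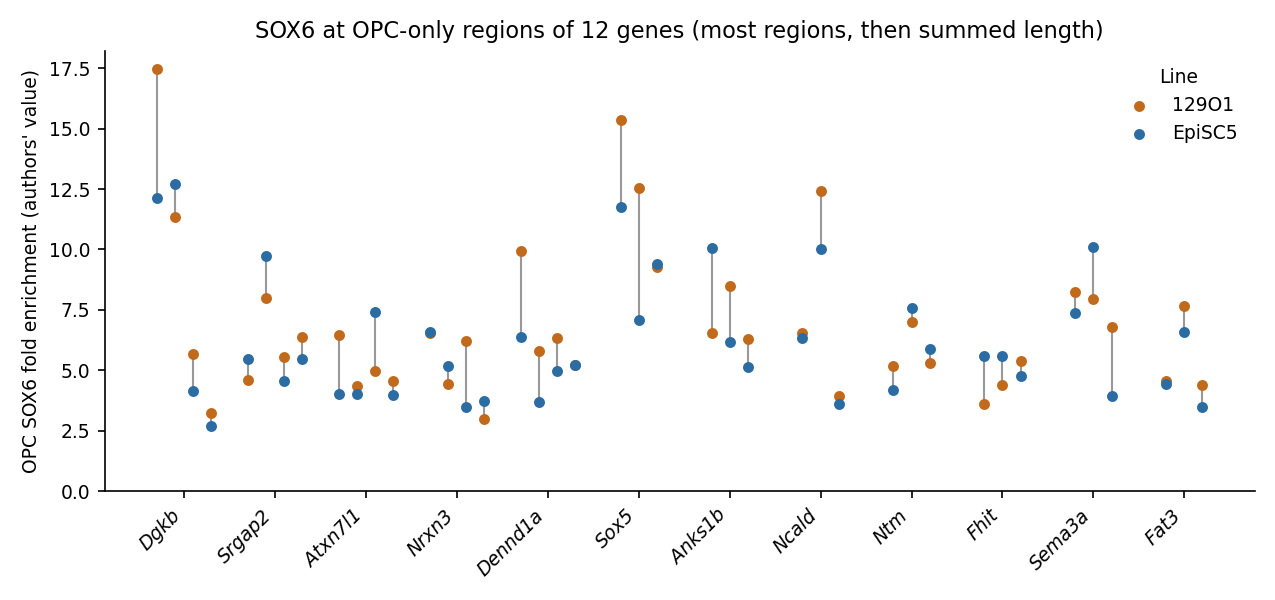
SOX6 fold enrichment in OPCs (y axis) at each OPC-only SOX6 region of the 12 genes first by number and then summed length of regions, with the lines joined by a grey bar for each region. Values run from 2.72 (Dgkb, EpiSC5) to 17.5 (Dgkb, 129O1), and the order of the lines differs from region to region.

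Sox5, which encodes a close relative of SOX6, held 3 OPC-only SOX6 regions in its body of 954 kb. They lay at chr6:143940360-143942613, chr6:144106435-144107835 and chr6:144179920-144182328. Their SOX6 folds were 15.3 and 11.8, 12.6 and 7.10, and 9.27 and 9.40, and their H3K27ac folds 5.24 and 5.35, 4.34 and 3.41, and 6.96 and 7.21. All 3 were above the median of the regions for SOX6 in both lines. Sox5 also held 3 constant regions, each with SOX6, and 3 OL-only regions. The first of the 3 lay 5.62 kb from the single start that the promoter table gives for Sox5, which is inside the body. The gene's OL SOX6 peak lay 469 kb from the 5′ end of the body, away from the 3 regions, with a fold of 5.39. Sox6 itself held no OPC-only region, with or without SOX6, and 11 constant SOX6 regions. Tcf12, an E-protein gene, was the other of 25 lineage transcription factor genes with a region (SOX6 7.34 and 4.95). Thus 2 of 25 (8%) held one, against 3.74% of all genes. Both genes are long, with Tcf12 at 267.6 kb and Sox5 at 954 kb, and the median length of the list was 11.96 kb. Over all genes 14.9% held one at 100 to 500 kb of length and 44.4% above 500 kb. The part of length in this count was not tested.

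**Figure D5:**
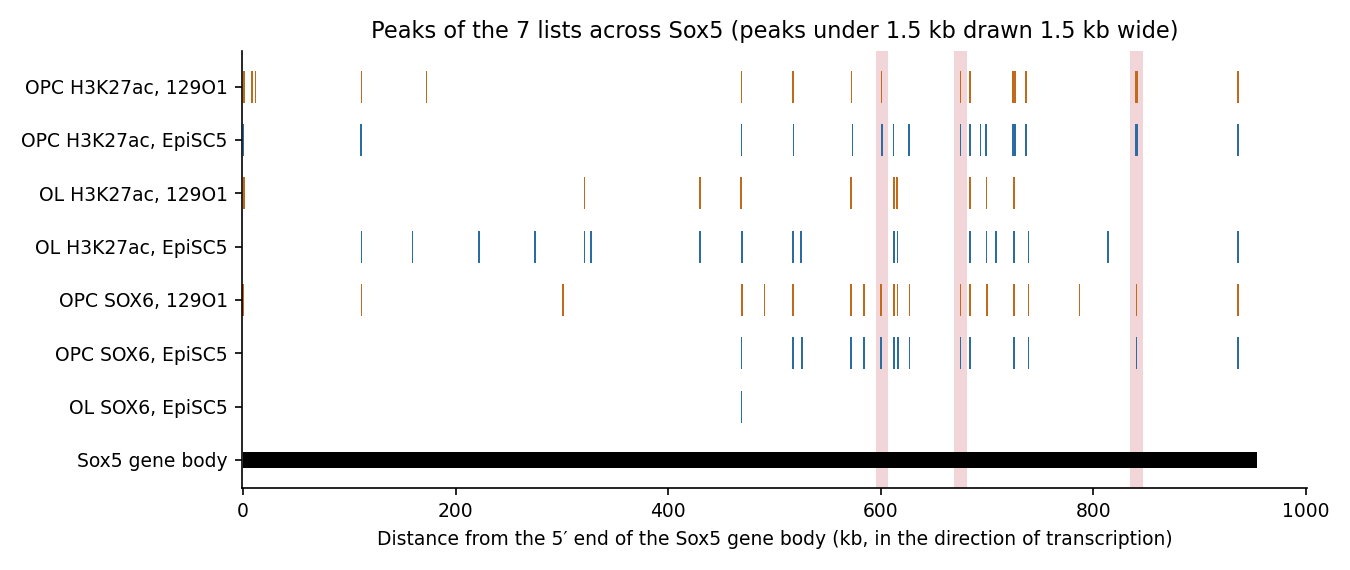
Peaks of the 7 lists along Sox5, by distance from the 5′ end of the gene body in kb, coloured by cell line. Pink bands mark the 3 OPC-only SOX6 regions, between 600 and 842 kb from that end, where OPC H3K27ac and OPC SOX6 peaks are listed in both lines and OL rows are empty.

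Of 35 OPC genes, 4 (11.4%) held one of these regions, against 3.74% of all genes. Lhfpl3 and Nxph1 held 2 each, and Gria4, an AMPA receptor subunit gene, and Nfia held 1. These 4 genes span 301 to 541 kb, and the median length of the list was 62.35 kb. Over all genes 14.9% held one at 100 to 500 kb and 44.4% above 500 kb. At Nxph1, a neurexophilin gene, SOX6 folds were 13.6 and 10.2, and 4.62 and 4.18. A constant SOX6 region, by contrast, was held by 31 of the 35 (88.6%), against 23.4% of all genes. Pdgfra, the receptor for PDGFA, Cspg4, which encodes NG2, Olig1, Olig2 and Sox10 held no OPC-only region at all, and held between 1 and 2 constant SOX6 regions each. Ptprz1 held 4 OPC-only regions and Egfr 2, none with SOX6 in both lists. Ccnd1, a G1 cyclin gene, held neither kind. Regions are a count of separate intervals and do not measure how much acetylation a gene lost: H3K27ac covered 15.2 and 13.1 kb in OPCs and 2.55 and 1.54 kb in OLs around Pdgfra, and 8.37 and 6.17 kb against 0.412 and 0 kb around Ccnd1.

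No OPC-only SOX6 region was held by the 23 immature oligodendrocyte genes, 29 myelin genes or 19 cholesterol synthesis genes counted. Mbp, a major myelin protein gene, Myrf, a master factor of myelination, and Bcas1, a marker of newly formed oligodendrocytes, were among them, and each held 3 OL-only regions. The 14 astrocyte, 12 microglia, 11 Schwann cell and 13 housekeeping genes also held none. At 3.74% over all genes, a count of 0 in lists this short is near the background. Of 14 neuron genes 2 (14.3%) held one, Syt1 and Map2, and of 14 pluripotency genes 1 (7.14%) did, at Nanog. Syt1 spans 513 kb, Map2 267 kb and Nanog 7.15 kb. Over all genes 1.07% held one below 20 kb of length, 14.9% at 100 to 500 kb and 44.4% above 500 kb. The Nanog region lay outside the gene body, at chr6:122715619-122716469, with SOX6 folds of 7.81 and 7.42 and H3K27ac folds of 2.52 and 3.09.

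Counts for signalling and adhesion lists are read against 3.74% of all genes and against gene length. Among 25 extracellular matrix and adhesion genes 8 (32.0%) held a region, among 21 Wnt pathway genes 6 (28.6%), among 23 axon guidance genes 6 (26.1%), among 22 BMP and TGF-beta genes 5 (22.7%) and among 21 receptor tyrosine kinases 4 (19%). The median gene length of these lists was 145, 47.4, 206, 42.8 and 111 kb. Over all genes the share was 3.37% at 20 to 100 kb of length and 14.9% at 100 to 500 kb. The part of length in these counts was not tested. Lsamp, an adhesion gene, held the region with the highest H3K27ac fold among all 1522, 13.3 and 10.3. In the Wnt pathway the genes were the receptor genes Fzd3, Fzd9 and Lgr5, the ligand gene Wnt7b, and Rnf43 and Znrf3, whose products remove Wnt receptors from the cell surface. At Znrf3 SOX6 folds were 11.4 and 6.79. The BMP and TGF-beta genes were the ligand gene Tgfb2, the receptor genes Bmpr1b, Bmpr2 and Tgfbr1, and Smad5, a transducer. The guidance genes were the ligand genes Sema3a, Sema6d, Slit2 and Efnb2 and the receptor genes Dcc and Robo1, of which Slit2 had SOX6 folds of 11.4 and 10.4.

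Over all genes the share with a region was 3.74%, as above. Among receptor tyrosine kinases the genes were Erbb4, Igf1r, Ntrk2 and Ntrk3. Ntrk2, the BDNF receptor gene, held 3, with SOX6 folds of 9.11 and 6.62, 5.70 and 5.11, and 11.2 and 11.3. Among 24 genes of MAPK feedback and AP-1, 3 (12.5%) held a region: Etv1, an ETS factor gene (SOX6 3.99 and 4.42), Ier2, an immediate early gene (10.5 and 9.21), and Il17rd, a feedback inhibitor of FGF signalling (6.82 and 4.43). Among 22 cell cycle genes, 3 (13.6%) did. These were Ccnd2, a G1 cyclin gene (13.8 and 5.96), its kinase partner gene Cdk6, with 2 regions (11.5 and 11.0, and 9.96 and 6.67), and Mcm2, a subunit gene of the replicative helicase (8.26 and 9.45). Cdk6 held no OL-only region, and H3K27ac around it covered 11.2 and 4.95 kb in OPCs against 1.10 and 0.684 kb in OLs. Maml3, a Notch coactivator gene, was the 1 of 21 Notch pathway genes (4.76%, near the share over all genes), with 2.

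Of the 773 genes with an OPC-only SOX6 region, 359 (46.4%) also held an OL-only region, against 33.7% of the 2179 genes with an OPC-only region but none with SOX6 in both lists, and 22.1% of all genes. The 46.4% was 26.8% with all lists, OL lists included, held to a −log10 q of 10 or more. It was 52.8% with only the OPC lists held to 10 and the OL lists whole. The shares beside it were not recomputed at these limits. Within length classes the shares came close together: 35.5%, 30.0% and 29.3% at 20 to 100 kb, and 58.8%, 59.2% and 55.0% at 100 to 500 kb. Of the 773 genes, 325 (42.0%) also held a constant SOX6 region, against 23.4% of all genes, whose median length was 17.5 kb against 110 kb. Within 50 kb of the regions themselves an OL-only region was found for 26.4%, against 30.9% of OPC-only regions without SOX6.

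When regions were chosen in 1 line and looked up in the other, about as many repeated as did not. Among the regions merged over all 4 lists, 3182 had OPC H3K27ac, OPC SOX6 and no OL H3K27ac in 129O1, and 47.8% met all 3 conditions in EpiSC5. In EpiSC5 2881 did, and 52.8% met them in 129O1. The share repeating both acetylation conditions was larger with SOX6 than without. Of regions chosen in 129O1, 66.7% of those with SOX6 and 50.4% of those without were OPC-only in EpiSC5 too, against 55.9% of all 9465. Of regions chosen in EpiSC5, it was 59.0% and 46.8% in 129O1, against 50.1% of all 10556. Taken singly, the OPC peak repeated in 75.4% with SOX6 and 52.9% without for regions chosen in 129O1. For those chosen in EpiSC5 it repeated in 91.2% and 79.2%. The absence of an OL peak repeated less with SOX6 (89.9%) than without (96.3%) for regions chosen in 129O1. For those chosen in EpiSC5 the absence repeated about equally, in 67.4% and 66.6%. Regions with SOX6 were also wider and higher, with a median width of 1194 against 878 bp and a median H3K27ac fold of 3.44 against 3.10 in 129O1, and the part of these in the repeat was not tested.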

How the data were processed

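The submitters' processing notes name mm10 as the build, with bedtools, Bowtie2 2.3.2, deepTools, Picard and Trim Galore 0.3.1 as tools. The peak caller is not given in the sources used here. The deposited score of each peak is 10 times its −log10 q within 1. The fold enrichment, a ratio, and the −log10 p and q are the authors' values per peak and were used only to describe or filter peaks within a list. Of 9 samples, 7 had lists used here, and the 2 input samples were not analysed here. Replicates are the lines 129O1 and EpiSC5, each list is of 1 library, and depth is unknown, so no counting interval is given.

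Peaks of the 4 H3K27ac lists on chromosomes 1 to 19 were merged at 1 bp of overlap and classed by presence (Python 3.11.15, pandas 2.3.3), and the code was tested on simulated lists and against bedtools 2.31.1. Genes and promoter windows came from RefSeq (GRCm38.p6); windows lack chromosome 18 and cover 81.7% of the other protein-coding genes. No exons were at hand. Coordinates are 1-based. The regions and gene lists were chosen with earlier results of these data known, and no test was made. Named genes are the 12 with most regions, those nearest to the 12 regions with most SOX6 and the 8 widest, up to 8 per gene list, 14 genes always given, and some singled out later; a few genes the rule takes are not reported here. Alternatives changed overlap, threshold, list length, merging, chromosomes, gene window and line.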

Additional observations from a re-analysis of the deposited data

How the results depend on the processing

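The 9 summary values were recomputed under 15 settings, 105 values in all, of which 61 stayed within a limit and 44 moved. The limit was 1 SD of the 2 values from each line alone, or 1.5 times for counts. Both single-line values can lie on the same side of the main value, as for the OL SOX6 share, and most were themselves scored. The tally is thus a description and no measure of robustness. The cause of a move was not tested. With the SOX6 summit, or 50% of its peak, required inside the region, the share with an OL SOX6 peak was 0.414% or 0.481% and the median width 1363 bp. With all lists at a −log10 q of 5 or more, that share was 0.910%, the width 1467 bp, the share in a gene body 47.5% and the share of genes with an OL-only region 40.0%. At 10 or more these were 1.99%, 1802 bp, 51.0% and 26.8%, and 37.9% of OPC-only regions had SOX6. With only the OPC lists held to 10, there were 489 regions at 267 genes, 37.3% of OPC-only regions had SOX6, the width was 1686 bp, 44.8% lay in a gene body, 52.8% of genes held an OL-only region, 23.1% of constant SOX6 regions had an OL SOX6 peak, and 40.5% of regions repeated between lines. With equal numbers of peaks the width was 1417 bp, the share with an OL SOX6 peak 0.980%, the genes with an OL-only region 40.1% and the repeat 54.0%. At the 12 genes described, 21 of 132 recomputed counts moved by over 1.5 times. A window of 50 kb gave 1544 genes, 51.2% with an OL-only region. Restricting constant SOX6 regions by width and folds or to those off promoters, chosen after seeing the data, gave 7.16% and 12.2%, and OPC-only SOX6 regions by width and folds 0.309%.

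By the OPC and H3K27ac lists of 1 line alone, with the EpiSC5 list for OL SOX6 in both cases, there were 2825 to 3144 regions at 1490 to 1516 genes, 1108 to 1133.5 bp wide, 48.5% to 49.8% of them in a gene body, 0.922% to 0.956% with an OL SOX6 peak, against 17.6% to 19.6% of constant SOX6 regions, and 52.2% to 56.6% of genes held an OL-only region. In every setting that was run, the share with an OL SOX6 peak was lower for OPC-only SOX6 regions than for constant ones. No paired analysis was possible because no result comes from a test, and values within each line stand in its place. The planned SOX motif search in whole regions and around summits was not run, for want of a genome sequence. Depth is unknown, so a peak missing from a list may be a peak below its threshold.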

Other observations

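On the X chromosome, left out above, 44 of 195 OPC-only regions had SOX6 in both OPC lists. None of the 44 had an OL SOX6 peak, against 7 of 114 constant SOX6 regions there. On chromosomes 1 to 19 these shares were 0.591% and 21.1%, so a count of 0 among 44 is near the first of them.

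MicroRNA hairpins lay inside 2 of the OPC-only SOX6 regions. Mir7228 lay in a region within Syna with SOX6 folds of 5.09 and 3.73 in 129O1 and EpiSC5, and Mir3473e in one within Rbks with 4.20 and 3.57.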
